A study of Homo sapiens with 6 samples.

Results

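The ATP-binding cassette (ABC) transporter family was followed in PLC/PRF/5 cells, an established human hepatocellular carcinoma line, after knockdown of the splicing factor SLU7. Members were the transcript clusters whose single platform gene symbol began with ABC, a letter from A to G and a digit, with 1 cluster kept per gene. The rule gave 40 genes of 18708 clusters in all, each represented by 1 cluster. Of the 45 protein-coding genes with such a symbol in the RefSeq table, 39 were among them, and ABCC13, listed there as a transcribed pseudogene, was the other. The rest of the family was not analysed here.

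The cells had been transfected by lipofection either with siRNAs against SLU7 (3 arrays, SLU7 siRNA below) or with an irrelevant control siRNA, siGL (3 arrays, control siRNA below), and RNA was taken 48 h later. The control arrays carry the names siGL1, siGL2 and siGL3 in their descriptions, and the SLU7 arrays siSlu71, siSlu72 and siSlu73. These digits match the replicate numbers of the titles and were read as such, but the labels do not say whether they stand for different siRNAs. Apart from the siRNA the groups shared the line, the medium and the transfection reagent. Each RNA sample was hybridised to a Human Exon 1.0 ST array, which gave 1 log2 expression value for each transcript cluster, a group of probe sets covering a gene. The model is a single tumour line with a transient and partial knockdown. Whether the replicates were separate cultures is not stated in the labels, and the p-values therefore cover the spread among these arrays alone, technical spread included.

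ABC proteins couple the binding and hydrolysis of ATP to the movement of substrates across membranes. In the hepatocyte, exporters of the B, C and G subfamilies in the canalicular membrane drive bile formation by pumping bile salts, phospholipid, sterols and conjugates such as bilirubin glucuronide into bile. Other members load lipids onto lipoproteins, carry fatty acids into peroxisomes, serve mitochondria or form part of potassium channels, and the E and F subfamilies lack membrane domains and act in translation.

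SLU7, the targeted gene, had 5.84, 5.58 and 6.21 log2 units on the SLU7 siRNA arrays, against 7.89, 7.01 and 7.24 on the control siRNA arrays. Every knockdown array lay below every control array, at 35.2% of the control level, although the limma adjusted p was 0.0783. Array medians ran from 6.61 to 6.63 log2 units, and the number of arrays limits the precision. The first principal component set SLU7 replicate 1 and control replicate 2, 1 array of each group, away from the remaining arrays. Differences are therefore also given inside that pair and inside the other 4 arrays. Of 11 measured liver and liver tumour markers, 10 had values above the lower quartile of at least 1 array, and ALB, the albumin gene, was below it on every array. The summed linear level of these markers was 15200 to 16400 with SLU7 siRNA and 20300 to 21700 with control siRNA. The summed level of 9 markers of blood, endothelial, stromal and bile duct cells was 487 to 638 with SLU7 siRNA and 563 to 668 with control siRNA, and 3 of the 9 were below the lower quartile on every array. The part of either marker list in the ABC values was not tested. In these bulk samples of 1 line, a change in part of the cells and a change in all of them cannot be told apart.

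After SLU7 knockdown, ABCC2 was the single ABC gene that passed the test: it fell 5.41-fold. None rose. Over all clusters 0.433% were called at an adjusted p under 0.05, 0.299% lower and 0.134% higher, and 1 call among 40 genes describes ABCC2 rather than the family. The groups did not overlap in 7 members that lay lower with SLU7 siRNA, against 9.21% of all clusters, and in 1 that lay higher, against 9.64% of all clusters. As shares of the 40 members these are 17.5% and 2.5%, where 18.9% of all clusters had no overlap in either direction. Of the members, 26 had a difference below 0 and 14 above it, with a median of -0.14 log2 units, while the median over all clusters was 0.0043 and 49.5% of clusters were below 0. The median of the members was not stable: it was 0.036 without control replicate 2. Unadjusted p-values under 0.05 were found for 4 members (10%), against 13.1% of all clusters.

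**Figure D1:**
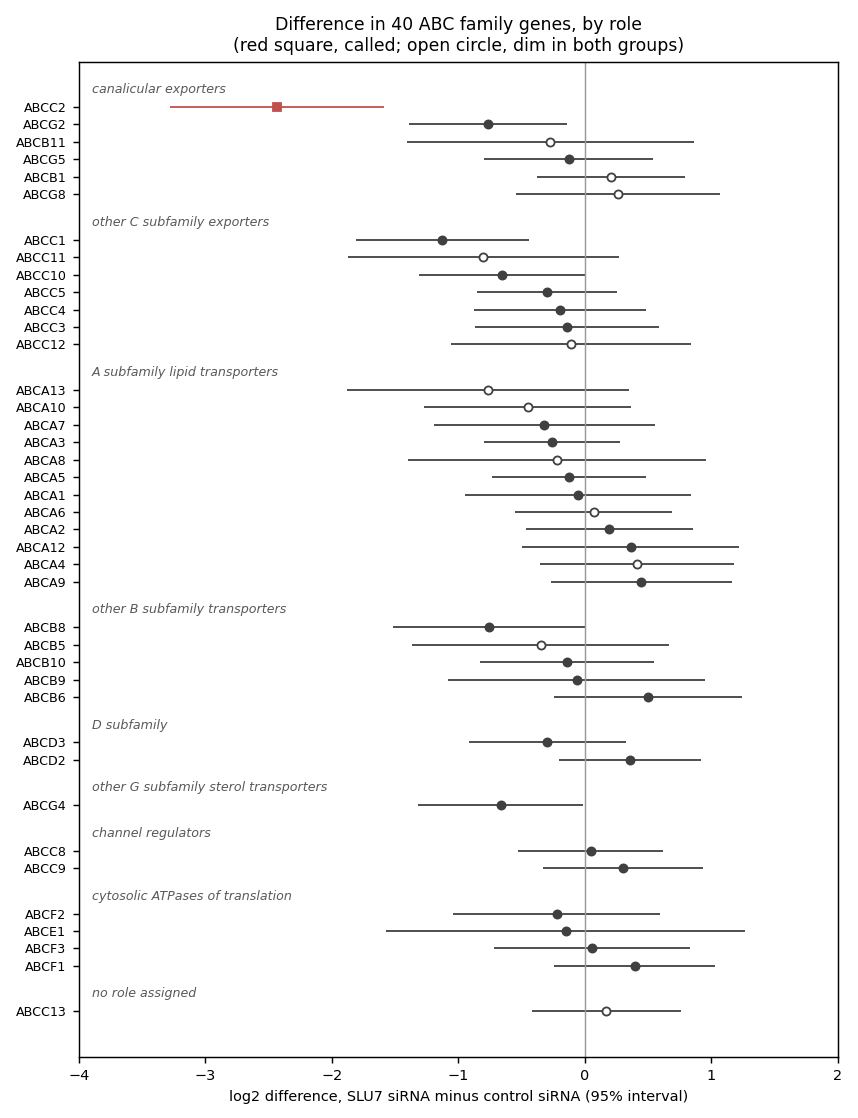
Log2 difference between SLU7 siRNA and control siRNA (horizontal axis) for 40 ABC genes grouped by role, with 95% intervals from limma. The red square marks the gene that passed the test, ABCC2 at -2.43, and open circles mark the 12 genes whose mean lay below the lower quartile of the arrays in both groups.

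ABCC2 encodes the canalicular pump for conjugated organic anions, bilirubin glucuronide among them (transcript cluster 3260499, gene on chromosome 10). It had 5.63, 6.42 and 5.97 log2 units on the SLU7 siRNA arrays, against 8.43, 7.81 and 9.07 on the control siRNA arrays. The highest knockdown value lay 1.39 log2 units below the lowest control value. The mean was 6.0 ± 0.40 with SLU7 siRNA and 8.44 ± 0.63 with control siRNA (SD, n = 3 each). The difference of -2.43 ± 0.37 (SE) log2 units had a 95% interval of -3.28 to -1.59, or a 3.0-fold to 9.75-fold lower level, and its limma adjusted p over all clusters was 0.0483. An exact permutation test, two-sided, on the 6 values gave p = 0.1, which is the lowest possible with 3 arrays a group. ABCC2 differed by -2.18 within the pair of arrays that stand apart, a single array against a single array with no error, and by -2.56 within the other 4. Without any 1 of the 6 arrays the difference ran from -2.75 to -2.12, and the limma adjusted p was 0.0591 to 0.18, above 0.05 each time. Without both arrays that stand apart the adjusted p was 0.11.

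The sequences upstream of ABCC2 and of ABCB11, which encodes the bile salt export pump, are shown because these exporters are the main pumps for organic anions and for bile salts at the same membrane, and the first of them changed. Both stretches end 1 base before the RefSeq start (GRCh38.p14, 250 bases each, 5′ to 3′ on the gene's strand), at chr10:99782390-99782639 on the plus strand for ABCC2 and at chr2:169031325-169031574 on the minus strand for ABCB11. Capitals mark matches to any of the 6 motifs that were searched.
ABCC2: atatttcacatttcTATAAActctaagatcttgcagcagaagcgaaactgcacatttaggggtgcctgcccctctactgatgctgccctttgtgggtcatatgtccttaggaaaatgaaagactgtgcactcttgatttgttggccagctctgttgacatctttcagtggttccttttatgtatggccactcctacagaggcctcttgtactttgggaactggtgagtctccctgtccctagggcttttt
ABCB11: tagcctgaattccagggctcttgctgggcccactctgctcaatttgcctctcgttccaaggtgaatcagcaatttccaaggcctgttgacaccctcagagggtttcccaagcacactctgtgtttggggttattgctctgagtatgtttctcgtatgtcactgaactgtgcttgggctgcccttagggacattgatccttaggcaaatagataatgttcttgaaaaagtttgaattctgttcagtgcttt

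Each motif was read on both strands. The core promoter elements were CCAAT as such, the GC box spelled GGGCGG and the TATA element spelled TATAAA. The others were the E box spelled CACGTG, the core of the antioxidant element spelled TGACNNNGC and the nuclear receptor hexamer spelled AGGTCA. None of these motifs contains another. ABCC2 held TATAAA 236 bases before its start, and ABCB11 held none of the motifs. TATAAA was present in the 250 bases before 12% of the 50 starts of the 33 ABC members that had an entry, against 10.7% of 35116 RefSeq starts. The GC box, absent from both stretches, was present before 48% of the ABC starts and 42.6% of all starts. CCAAT was found before 22% of the ABC starts and 32% of all starts, and the E box before 18% of the ABC starts and 6.34% of all starts. The antioxidant core was found before 16% of the ABC starts and 10.9% of all starts, and AGGTCA before 4% of the ABC starts and 12.1% of all starts. These are matches of letters in 1 window and say nothing of binding. ABCC1 had no entry in the RefSeq promoter table used here.

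**Figure D2:**
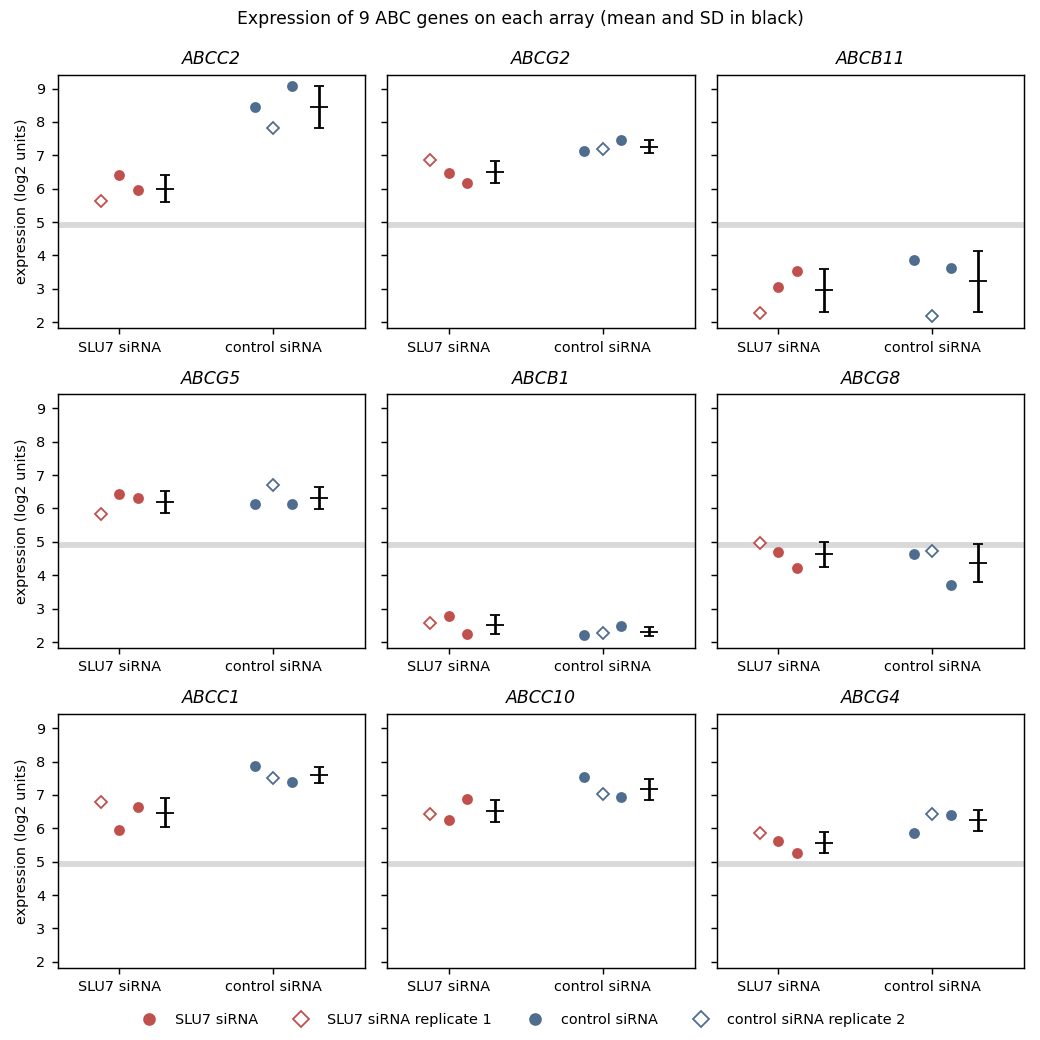
Expression in log2 units (vertical axis) on each of 3 SLU7 siRNA arrays (red) and 3 control siRNA arrays (blue) for 9 ABC genes, with the mean and SD in black. Open diamonds are SLU7 replicate 1 and control replicate 2, the arrays that stand apart, and the grey band spans the lower quartiles of the arrays (4.86 to 4.98); only ABCC2, ABCG2, ABCC1, ABCC10 and ABCG4 of these genes have groups that do not overlap.

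The remaining canalicular exporters did not pass. ABCG2, the efflux pump for urate and many drugs, had 6.86, 6.47 and 6.17 log2 units with SLU7 siRNA, against 7.12, 7.19 and 7.47 with control siRNA. The groups did not overlap, with a gap of 0.26. Its difference was -0.76 ± 0.27 (SE) log2 units, with a limma adjusted p of 0.274. It was -0.34 inside the pair of arrays that stand apart and -0.97 among the other 4.

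ABCB11 had 2.26, 3.04 and 3.54 log2 units with SLU7 siRNA, against 3.87, 2.18 and 3.63 with control siRNA. All 6 values lay below the lower quartile of the arrays, the groups overlapped, and SLU7 replicate 1 and control replicate 2 held the lowest value of each group. The difference of -0.28 had a 95% interval of -1.41 to 0.86. At so low a signal this does not limit the change in transcript level.

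ABCB1, the broad drug efflux pump P-glycoprotein, was also dim, at 2.56, 2.78 and 2.23 log2 units with SLU7 siRNA, against 2.21, 2.26 and 2.47 with control siRNA. Its difference was 0.21, with a 95% interval of -0.38 to 0.80. The sterol exporters ABCG5 and ABCG8 work as a heterodimer that moves cholesterol and plant sterols into bile. ABCG5 had 5.83, 6.44 and 6.31 log2 units with SLU7 siRNA, against 6.12, 6.71 and 6.13 with control siRNA. ABCG8 had 4.96, 4.68 and 4.23 with SLU7 siRNA, against 4.64, 4.74 and 3.70 with control siRNA, and its mean was dim in both groups. In both genes the groups overlapped. Their differences were -0.13 (95% interval -0.80 to 0.54) and 0.26 (-0.54 to 1.07). The sign for ABCG5 turned to 0.25 without both arrays that stand apart, where the value was -0.88 within the pair itself.

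ABCG5 and ABCG8 are neighbours that start head to head, and the 131 bases between their RefSeq starts, on the plus strand at chr2:43838840-43838970 (GRCh38.p14), are shown because the stretch serves both genes. It is 60.3% G and C and held none of the 6 motifs.
ABCG5-ABCG8: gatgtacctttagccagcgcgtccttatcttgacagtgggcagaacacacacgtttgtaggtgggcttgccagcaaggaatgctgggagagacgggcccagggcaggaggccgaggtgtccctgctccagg

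All 7 of the other C subfamily exporters had a difference below 0, from -1.13 to -0.11 with a median of -0.30 log2 units, and none passed the test. Without control replicate 2 the count below 0 was 4 of 7, with ABCC3, ABCC4 and ABCC12 above 0. ABCC1, a widely expressed pump for glutathione conjugates and leukotriene C4, had 6.78, 5.96 and 6.64 log2 units with SLU7 siRNA, against 7.85, 7.51 and 7.40 with control siRNA. The knockdown arrays all lay below the control arrays, by a gap of 0.62. The mean was 6.46 ± 0.44 with SLU7 siRNA and 7.59 ± 0.24 with control siRNA (SD, n = 3 each), a difference of -1.13 ± 0.30 (SE) or 2.18-fold. The limma adjusted p was 0.144, and it stayed above 0.05 in every alternative tried, with array weights giving the lowest at 0.0545.

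ABCC10, a drug efflux pump, had 6.44, 6.23 and 6.87 log2 units with SLU7 siRNA, against 7.53, 7.04 and 6.94 with control siRNA. The groups were separated by only 0.065 log2 units. The difference was -0.65 ± 0.29 (SE), with a limma adjusted p of 0.387. ABCC5, an exporter of cyclic nucleotides, differed by -0.30 with groups 0.042 log2 units apart.

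ABCC3 and ABCC4 are the basolateral pumps that send conjugates and bile acids from hepatocytes back to blood. ABCC3 had 8.69, 8.43 and 8.31 log2 units with SLU7 siRNA, against 8.45, 9.21 and 8.19 with control siRNA, while ABCC4 had 9.10, 8.77 and 8.95 with SLU7 siRNA, against 9.09, 9.61 and 8.70 with control siRNA. In both genes the highest value of all 6 arrays was that of control replicate 2, and the groups overlapped. The differences were -0.14 (95% interval -0.87 to 0.58) and -0.20 (-0.88 to 0.48), intervals that hold both signs, and the value for ABCC3 was 0.048 within the 4 arrays other than the pair. ABCC11 and ABCC12, neighbours on chromosome 16, differed by -0.80 and -0.11, both with means below the lower quartile in both groups. The low mean of ABCC11 with SLU7 siRNA rested on replicate 3, at 2.91 against 4.78 and 4.43 on replicates 1 and 2, and its difference was -0.24 without that array.

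The A subfamily, full transporters that mostly move lipids, showed no call among its 12 members. Their differences ran from -0.77 to 0.45 with a median of -0.089 log2 units, 7 below 0 and 5 above. Without SLU7 replicate 2 the count below 0 was 4. ABCA1, which hands cholesterol and phospholipid to apolipoprotein A-I, had 10.21, 9.12 and 9.16 log2 units with SLU7 siRNA, against 9.57, 10.06 and 9.01 with control siRNA. Its difference of -0.052 had a 95% interval of -0.95 to 0.84. The arrays that stand apart held the highest value in each group and averaged 0.92 log2 units above the other 4. ABCA3, the phospholipid transporter of lung surfactant, was the one A member with groups that did not overlap, at 7.34 to 7.58 with SLU7 siRNA and 7.65 to 7.86 with control siRNA, a difference of -0.26 ± 0.23 (SE).

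ABCA13 had the most negative A value, -0.77, and both groups were dim. It rested on control replicate 2, at 3.88 against 2.06 and 1.95 on control replicates 1 and 3, and the difference was -0.14 without that array. ABCA5, ABCA6, ABCA8, ABCA9 and ABCA10 lie side by side on chromosome 17. Their differences were -0.13, 0.069, -0.22, 0.45 and -0.45, and the limma interval of each gene held both signs. ABCA6, ABCA8 and ABCA10 were also dim in both groups. The signs therefore do not show that neighbours changed in opposite directions. ABCA4, the retinal transporter of photoreceptors, was dim and differed by 0.42. ABCA2, ABCA7 and ABCA12, which differed by 0.19, -0.32 and 0.36, had groups that overlapped.

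Among the other B subfamily genes, which serve mitochondria and lysosomes for the most part, none of 5 passed. ABCB8, a mitochondrial inner membrane transporter, had 5.88, 5.33 and 4.85 log2 units with SLU7 siRNA, against 5.99, 6.51 and 5.84 with control siRNA. The groups overlapped by a narrow margin through SLU7 replicate 1 and control replicate 3. The difference was -0.76 ± 0.33 (SE), with a limma adjusted p of 0.383. ABCB6, a porphyrin transporter, had the highest difference of the whole family, 0.50 ± 0.32 (SE), at 10.74, 10.12 and 10.14 with SLU7 siRNA, against 9.71, 10.36 and 9.45 with control siRNA. ABCB10, needed for heme synthesis, and ABCB9, a lysosomal peptide transporter, differed by -0.14 and -0.065. ABCB5 differed by -0.35 at a dim level, and by 0.19 without control replicate 2, where its level was 3.45 against 1.66 and 2.0 on control replicates 1 and 3.

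The D subfamily brings very long chain and branched fatty acids into peroxisomes. ABCD2 was the single member whose SLU7 siRNA arrays all lay above the control siRNA arrays, at 5.26, 5.12 and 4.96 log2 units with SLU7 siRNA, against 4.55, 4.89 and 4.84 with control siRNA. The gap was 0.068 and the difference 0.36 ± 0.24 (SE), with a limma adjusted p of 0.632, and the control siRNA mean was dim. ABCD3, the main peroxisomal membrane ABC protein of liver, differed by -0.30 with overlapping groups. ABCG4, a sterol transporter known mainly from brain, had 5.86, 5.61 and 5.25 log2 units with SLU7 siRNA, against 5.87, 6.44 and 6.40 with control siRNA. Its groups were 0.014 log2 units apart, and the difference was -0.67 ± 0.29 (SE), with a limma adjusted p of 0.371.

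ABCC8 and ABCC9 encode the sulfonylurea receptors, the regulatory subunits of ATP-sensitive potassium channels. ABCC8, known from pancreatic beta cells, had 13.24, 12.94 and 12.84 log2 units with SLU7 siRNA, against 12.87, 13.17 and 12.84 with control siRNA. The signal was steady across arrays, and the difference of 0.046 had a 95% interval of -0.53 to 0.62. ABCC9 differed by 0.30 (95% interval -0.33 to 0.93). The genes of the channel pore, KCNJ11 and KCNJ8, differed by 0.022 and 0.30, and neither passed.

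The soluble members are ATPases of translation. ABCE1, which splits ribosomes for recycling, varied most widely of the family in its fit (SE 0.62). It had 7.07, 9.02 and 8.92 log2 units with SLU7 siRNA, against 9.31, 7.42 and 8.73 with control siRNA. Both low values were those of the arrays that stand apart, which averaged 1.75 log2 units below the other 4, while the siRNA difference was -0.15 (95% interval -1.57 to 1.27). ABCF1, which binds the initiation factor eIF2, differed by 0.39 with overlapping groups, ABCF2 by -0.22 and ABCF3 by 0.056. ABCF2 had its lowest value on SLU7 replicate 1, at 5.30 against 6.66 and 6.15 on replicates 2 and 3. ABCC13, the pseudogene, was dim in both groups and differed by 0.17.

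The split between arrays was read off the first principal component of these same values, so its size is given as a description. The absolute difference between SLU7 replicate 1 with control replicate 2 and the other 4 arrays had a median of 0.396 log2 units over the 40 members, against 0.404 over all clusters. The absolute siRNA difference had a median of 0.286 over the members, against 0.285 over all clusters. The split was the larger of these in 21 members, or 52.5%, and in 59.4% of all clusters. ABCA8 (1.19), ABCB9 (1.11) and ABCA1 (0.92) were the members most raised in the pair of arrays, and ABCE1 (-1.75), ABCB11 (-1.30) and ABCC2 (-0.75) were most lowered. What separates these arrays is not given in the labels, and its part in each gene was not tested.

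**Figure D3:**
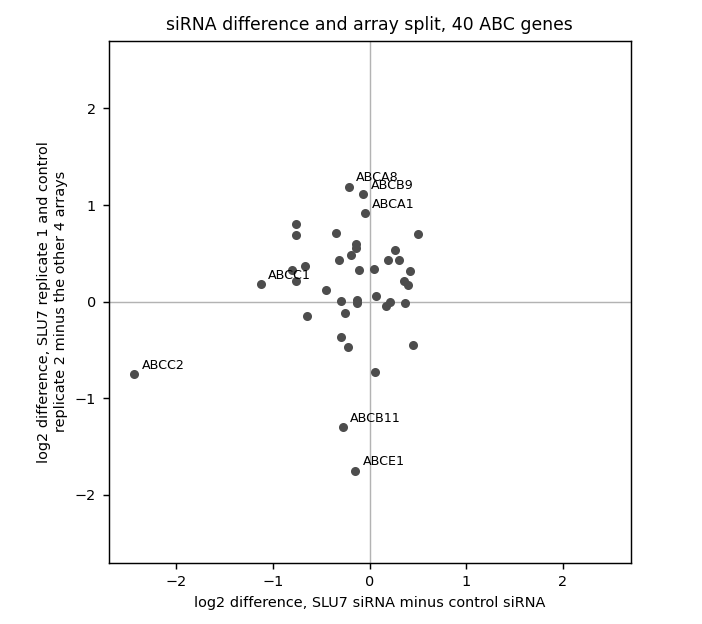
For 40 ABC genes, the log2 difference between SLU7 siRNA and control siRNA (horizontal axis) against the log2 difference between SLU7 replicate 1 with control replicate 2 and the other 4 arrays (vertical axis). ABCC2 lies far to the left at -2.43, while ABCE1 and ABCB11 lie low, at -1.75 and -1.30 on the vertical axis, with siRNA differences near 0.

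**Figure D4:**
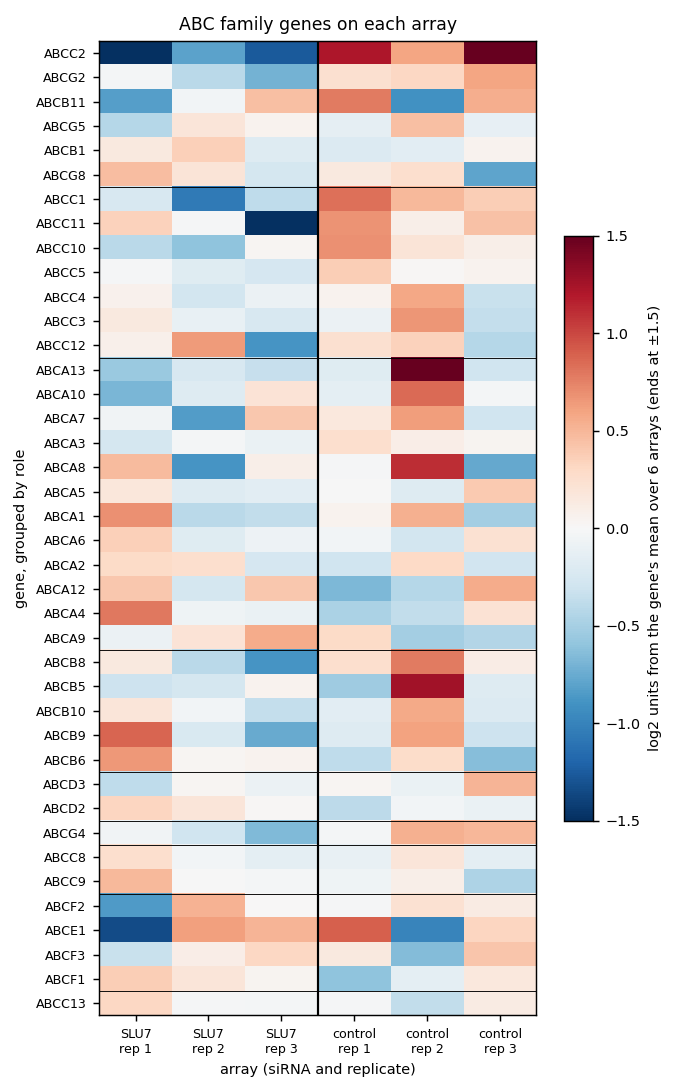
Expression of 40 ABC genes (rows, grouped by role) on each array (columns, SLU7 siRNA on the left and control siRNA on the right), coloured by the distance in log2 units from the gene's mean over 6 arrays. ABCC2 is blue on all SLU7 siRNA arrays and red on all control siRNA arrays, whereas ABCE1 is blue on SLU7 replicate 1 and control replicate 2.

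Genes that work with the transporters were read from lists of regulators, membrane scaffolds, carriers, enzymes and partners, 100 measured genes in all. VIL1 was the single one that passed, where 0.433% of all clusters were called. Of these genes 58 were below 0, with a median of -0.11, against 49.5% of all clusters and a median of 0.0043. Without overlap 20 lay lower and 10 higher, against 9.21% and 9.64% of all clusters. Among 14 scaffold and trafficking proteins of the canalicular membrane the median was -0.36, 1 fell and 13 did not pass. VIL1, the actin-bundling protein villin of microvilli, had 5.79, 6.50 and 7.09 log2 units with SLU7 siRNA, against 9.36, 8.90 and 9.57 with control siRNA. It fell 7.04-fold (limma adjusted p = 0.0371). Without any 1 array its difference ran from -3.13 to -2.48 and the limma adjusted p was 0.0591 to 0.18, so the call was lost each time, and without both arrays that stand apart it was 0.11. The groups also did not overlap for PDZK1, a scaffold that binds ABCC2 (-1.74, adjusted p = 0.162), CGN, the tight junction protein cingulin (-1.30), ATP8B1, the canalicular phospholipid flippase (-1.08), MSN, the moesin gene (-0.42), and NHERF1, a scaffold for membrane transporters (-0.37). VIPAS39, a trafficking protein, lay higher without overlap (0.61). Without overlap there were thus 6 lower and 1 higher of 14, where 9.21% of all clusters were lower and 9.64% higher. EZR, the ezrin gene, differed by 0.65 and RDX, which encodes radixin, the protein that tethers ABCC2 at the canaliculus in mice, by -0.42.

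None of 13 regulators of exporter genes passed, and their median was -0.16. NR1I2, the pregnane X receptor, which induces ABCC2 and ABCB1, averaged 2.57 log2 units with SLU7 siRNA and 3.66 with control siRNA, both dim, a difference of -1.09 ± 0.27 (SE). ESRRA, an orphan receptor of energy metabolism, differed by -1.18 ± 0.31 (SE), and KEAP1, the inhibitor of NRF2, by 0.94 ± 0.33 (SE). In these genes the groups did not overlap, and neither did they in NR1H3 (-0.91), SREBF2 (-0.70), NR0B2 (0.21) and NFE2L2 (0.18). That made 4 lower and 3 higher of 13, against 9.21% and 9.64% of all clusters. The limma adjusted p was 0.122 for NR1I2, 0.139 for ESRRA and 0.26 for KEAP1. NR1H4, the bile acid receptor FXR, was dim in both groups and differed by -0.70 (95% interval -1.48 to 0.087). NR1I3 differed by -0.16.

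The uptake carriers held 6 measured genes with a median of -0.13, 4 of them dim in both groups and none called. SLCO2B1, an organic anion uptake carrier, differed by -2.13 ± 0.53 (SE) with groups that did not overlap (limma adjusted p = 0.122), and its SLU7 siRNA mean was dim. The 13 enzymes of bile acid synthesis had a median of -0.50, 10 below 0 and 3 above, and none passed. The groups did not overlap in HSD17B4, a peroxisomal beta-oxidation enzyme, at -2.20 ± 0.47 (SE) (limma adjusted p = 0.086). Nor did they in AKR1C4 at -1.03, where the SLU7 siRNA mean was dim, and CYP27A1, the sterol 27-hydroxylase, at -0.86. CYP7A1 (-1.44, dim in both groups) and HSD3B7 (-1.13) had overlapping groups. The 8 conjugating enzymes had a median of 0.019, and GSTP1 alone among them had groups that did not overlap (-0.34). For the 11 lipid acceptors and partners of ABCA1 and ABCG1 the median was -0.50, and none passed. The lowest values were those of APOM (-1.19) and SOAT1, the cholesterol esterifying enzyme (-1.18, with overlapping groups). APOA1, the main acceptor (-0.93), SCARB1 (-0.65, with overlapping groups) and NPC2 (-0.61) followed. Without overlap, 1 of 6 carriers, 3 of 13 bile acid enzymes, 1 of 8 conjugating enzymes and 4 of 11 lipid partners lay lower. No gene of these lists lay higher without overlap, where 9.21% of all clusters were lower and 9.64% higher. Among the lipid partners counted as lower, APOA2 (-0.38) had groups only 2.1e-05 log2 units apart.

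No gene passed in the partner lists of the other subfamilies. The 8 peroxisomal partners had a median of 0.033, with PEX14, a docking protein for the import receptor, at 0.39. The 11 mitochondrial iron-sulfur and heme genes had a median of 0.061, with ISCU, the scaffold for cluster assembly, at 1.04 ± 0.32 (SE) and ISCA1 at -0.78. The 9 translation partners had a median of 0.33. EIF2AK4, the amino acid sensor kinase, differed by 0.98 with a dim control siRNA mean, EIF5 by 0.65 and HBS1L, a ribosome rescue factor, by 0.33. Each of these named genes had groups that did not overlap, which 9.21% of all clusters showed in the lower direction and 9.64% in the higher one. Of the family members and partners that carry other names, TAP1, a peptide transporter of antigen presentation, differed by 0.34 without overlap, TAP2 by -0.091 and CFTR, the chloride channel, by 0.23 at a dim level.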

How the data were processed

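RNA from PLC/PRF/5 cells was measured on 6 arrays, 3 with SLU7 siRNA and 3 with control siRNA. Per the labels, the authors summarised probes with aroma.affymetrix's core chip definition, and RMA is named in the submitters' processing notes. The deposited values are read as log2 from their range (0.958 to 14.5). The genome build of the array annotation is not given in the sources used here, so no cluster coordinates are printed. A single value per gene cannot show exon skipping or intron retention.

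Clusters were named through the platform annotation held by GEO: 16287 of 18708 had 1 symbol, 674 several and 1747 none. For partner lists, 2179 older symbols were updated through the RefSeq table of GRCh38.p14, and the brightest cluster stood for a gene. Clusters with several symbols, among them 3 with an ABC name, were left out.

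Groups were compared with limma 3.58.1 (R 4.3.3; lmFit and eBayes) on all clusters with group as the only term and Benjamini-Hochberg adjustment at 0.05. Single values had an exact permutation test. The fit was tested on simulated data with independent noise and no array split, so that test does not cover the split seen in these arrays. "Dim" means a mean below 4.86, the lowest of the arrays' lower quartiles. Per-array values are given for the canalicular exporters, called members, and up to 3 members per role whose groups do not overlap with a difference of at least 0.5, and other members named with values were chosen after their values were seen. Alternatives were a replicate block, a filter on dim clusters, quantile normalization, a variance trend with robust shrinkage, a threshold of 0.01, weights per array, averaging the clusters of each gene, and omitting every array in turn. The members and lists were chosen with earlier results of these data known. Upstream sequences came from RefSeq (Python 3.11.15).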

Additional observations from a re-analysis of the deposited data

How the results depend on the processing

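The limits are the number of arrays, the absence of detection calls, and an array split with no given cause. ABCC2 kept its call in 6 of 15 alternatives, where it was the 1 ABC gene called. Its direction stayed the same in all 15, which is no separate check. The groups of ABCC2 do not overlap, and several of the settings cannot move its difference. With the replicate number as a block 0 ABC genes and 0 partner genes were called (ABCC2 limma adjusted p = 0.161, with 2 ABC genes at an unadjusted p under 0.05). The labels give same-numbered arrays no link beyond the number. Their deviations correlated at -0.381, -0.314 and 0.141, and 0 of 6 arrays correlated best with their own number. The array split joins arrays of different numbers and enters these deviations, so they cannot show whether same-numbered arrays were paired. At a threshold of 0.01 both counts were 0, as without any 1 array (0 to 0, with 2 to 6 ABC genes at an unadjusted p under 0.05) and without both arrays that stand apart (5 ABC genes at an unadjusted p under 0.05), an alternative chosen after seeing the data. Over all clusters these limma fits also called 0, so the losses were not particular to ABCC2. The count of partner genes was 2 without dim clusters, 3 with a variance trend and robust shrinkage, 4 with array weights, and 6 with the arrays that stand apart as a block, also chosen after seeing the data and read off these same arrays. In these 4 settings 324, 441, 575 and 783 clusters were called, against 81, and the cause of these changes was not tested. SLU7 then passed, with differences of -1.51, -1.51, -1.61 and -1.51 (limma adjusted p = 0.0411, 0.033, 0.0269 and 0.043), and without 1 array its difference ran from -1.69 to -1.25. The median of the ABC members was -0.045 without both arrays that stand apart, and without 1 array it ran from -0.23 to 0.036.

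No ABC gene that changed sign had been called, and 20 of 40 changed sign in at least 1 alternative. With array weights the differences became -0.14 for ABCA6, 0.16 for ABCC12, 0.010 for ABCC3, 0.082 for ABCF2, -0.067 for ABCF3 and 0.11 for ABCG5. Without both arrays that stand apart they were 0.090 for ABCA10, -0.22 for ABCA6, 0.26 for ABCB5, -0.080 for ABCC13, 0.048 for ABCC3, 0.21 for ABCF2, -0.074 for ABCF3 and 0.25 for ABCG5. Without 1 array the values ran from -0.41 to 0.20 for ABCA1, from -0.25 to 0.036 for ABCA5, from -0.093 to 0.20 for ABCA6, from -0.60 to 0.017 for ABCA7, from -0.66 to 0.28 for ABCA8, from -0.28 to 0.11 for ABCB10, from -0.80 to 0.068 for ABCB11, from -0.70 to 0.19 for ABCB5, from -0.52 to 0.29 for ABCB9, from -0.46 to 0.31 for ABCC12, from -0.35 to 0.15 for ABCC3, from -0.41 to 0.041 for ABCC4, from -0.072 to 0.15 for ABCC8, from -0.68 to 0.48 for ABCE1, from -0.54 to 0.15 for ABCF2, from -0.25 to 0.28 for ABCF3, from -0.25 to 0.064 for ABCG5 and from -0.068 to 0.46 for ABCG8. The cause of these sign changes was not tested.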
